A study of Mus musculus with 59 samples.

Results

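The tumors described here were 20 passaged mouse serous epithelial ovarian cancers (SEOCs) with a pathological stage label, taken from 59 array profiles in the series. Members were chosen by their labels alone: new-set tumors of passage 1, 2 or 3 with any stage I to IV, grouped as stage III-IV (12 arrays) or stage I-II (8 arrays). All were ovarian tumors of FVB/NJ mice, grown from tumor fragments placed under the ovarian bursa of syngeneic, immunocompetent females. Passage 1 tumors grew from fragments of primary tumors, and passages 2 and 3 came from further passaging in mice. Every tumor carried the K18 transgene, which expresses a fragment of SV40 T antigen from keratin 18 regulatory sequences and inactivates RB family proteins, and every tumor had deleted p53. Stage III-IV held 8 tumors of stage IIIA, 1 of IIIB and 3 of IV, and stage I-II held 1 of IB, 6 of IIA and 1 of IIB. The genotype labelled B1 D/D with K18 tg and cp D/D is called Brca1-deficient here and the genotype labelled K18 D/D, cp D/D is called Brca1 wild type. There were 6 tumors of each genotype in stage III-IV, and 5 Brca1-deficient and 3 Brca1 wild type tumors in stage I-II. Passages 1, 2 and 3 gave 5, 5 and 2 tumors of stage III-IV and 3, 3 and 2 of stage I-II.

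Stage I disease lies within the ovary, stage II reaches other pelvic tissue, stage III spreads over the peritoneum and stage IV reaches distant organs. Ovarian cancer cells spread mainly by shedding into the peritoneal fluid and attaching to the mesothelium that lines the abdomen, with help from adhesion proteins, proteases and chemokines. The profiles here came from ovarian tumors, so they compare tumors from animals with less or more spread and do not profile the metastases.

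A pair of arrays, 65021 and 64644, differed by an SD of only 0.0722 in log2 level over 45037 probe sets, yet is labelled stage IIA and stage IIIA. Another pair, 62803 and 61362, differed by an SD of 0.0803 and is labelled stage IIA in both but with opposite Brca1 genotypes. The next closest pair of the series had an SD of 0.2094. The first pair was left out because its stage is unsettled, and the second was averaged into 1 profile with a Brca1 value of 0.5. This left 17 profiles, 11 of stage III-IV and 6 of stage I-II. The values were log2 levels from RMA, and array medians of the 20 tumors ran from 7.31 to 7.51. The labels and methods do not tie each passaged tumor to its source line. Tumors of 1 line may therefore stand as separate samples, and p-values can be too small. In the sample order of the series, each passaged tumor follows a primary tumor of its own Brca1 genotype. The Brca1 wild type stage I-II tumors, 56234, 56230 and 62803, follow the same primary tumor as the stage III tumor 60514. All other Brca1 wild type stage III-IV tumors follow other primary tumors. Of the 17 profiles, the Brca1-deficient stage II tumors 57454 and 61345 follow the same primary tumor as the stage III tumor 57452. The other profiles with a Brca1-deficient label only, 60530 among them, follow 1 other primary tumor. Whether this order marks source lines is not stated.

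The epithelial identity of the tumors was as labelled in both stage groups. Keratin 18, whose regulatory sequences drive the transgene, ranged from 13.71 to 13.96 in stage III-IV and from 13.78 to 13.89 in stage I-II. Epcam, an epithelial adhesion molecule, had a median of 13.05 in stage III-IV and 12.94 in stage I-II. Wt1, a transcription factor of serous ovarian cancer and mesothelium, had medians of 12.59 and 12.52. Pax8, a Mullerian lineage factor, was dim in every profile, with a highest value of 6.62. Brca1 levels ran from 9.99 to 11.04 in Brca1-deficient and from 9.92 to 11.15 in Brca1 wild type profiles and did not separate the genotypes. Whether its probe set lies in the deleted part is unknown here, so it does not check the labels. Actb levels differed by 0.03 between stages, with groups that overlapped.

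Over all probe sets, stage accounted for 9.3% of the variance between the 17 profiles (exact permutation test over 12376 choices, one-sided, p = 0.122). In the 16 profiles with a single genotype label, stage accounted for 8.1% (exact permutation test, one-sided, p = 0.252) and Brca1 genotype for 14.9% (exact permutation test, one-sided, p = 0.021). Passage 1 against later passages accounted for 3.8% (exact permutation test, one-sided, p = 0.837). Over the 8 such shares computed, no adjusted p was under 0.05 (the smallest was 0.163; exact permutation test). The most similar other profile had the same stage group for 14 of 17 profiles (exact permutation test, one-sided, p = 0.036), and for 13 of 17 when dim probe sets were left out (p = 0.0692, exact permutation test). The 3 exceptions were the stage III tumors 57078 and 61742, nearest to the stage II tumor 60530, and 60530 itself, nearest to 57078 with a correlation of 0.63. In the 16 profiles with a single genotype label, the most similar profile had the same stage group for 13 (exact permutation test, one-sided, p = 0.0609). It had the same Brca1 genotype for 14 (exact permutation test, one-sided, p = 0.0179). The closest pairs lay within a stage group. Tumors 63846 and 63935, both stage IV, correlated at 0.85, 56234 and the averaged pair, all stage II, at 0.80, and 57093 and 61333, stages III and IV, at 0.79. In sample order, 63846 and 63935 also follow the same primary tumor. So do 57093 and 61333, and so do 56234 and 62803 of the averaged pair. The 3 exceptions, 57078, 61742 and 60530, share a primary tumor in that order too. The permutations treated all profiles as exchangeable, so resemblance by stage and by source line cannot be told apart here. These correlations were over probe sets after each was centred, and probe sets are not independent replicates.

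Galnt2 was the only gene that passed the test between stages. It encodes a Golgi enzyme that adds the first sugar in mucin-type O-glycosylation, and it rose 1.42-fold in stage III-IV. Its log2 levels in stage III-IV had a lowest value of 11.11, a median of 11.21 and a highest of 11.54. In stage I-II they were 10.69, 10.76 and 10.82, so the groups did not overlap. The difference was 0.51 with an SE of 0.063 (limma with Brca1 genotype as covariate, adjusted p = 0.00989). Within genotypes, Brca1-deficient tumors had means of 11.17 ± 0.05 (SD, n = 5) in stage III-IV and 10.78 ± 0.03 (SD, n = 3) in stage I-II. The Brca1 wild type means were 11.37 ± 0.12 (SD, n = 6) and 10.74 ± 0.04 (SD, n = 2). The stage difference in Galnt2 was 0.39 and 0.63 in these genotypes, without a detectable interaction (limma, adjusted p = 0.289). With 1 of 18193 genes called, the share was 0.0055%, and 1766 genes (9.71%) had an unadjusted p under 0.05, 729 higher (4.01%) and 1037 lower (5.7%). The call was lost without tumor 56234, without 56230 or without the averaged pair, where the adjusted p from limma was 0.0842, 0.0819 and 0.0616.

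**Figure D1:**
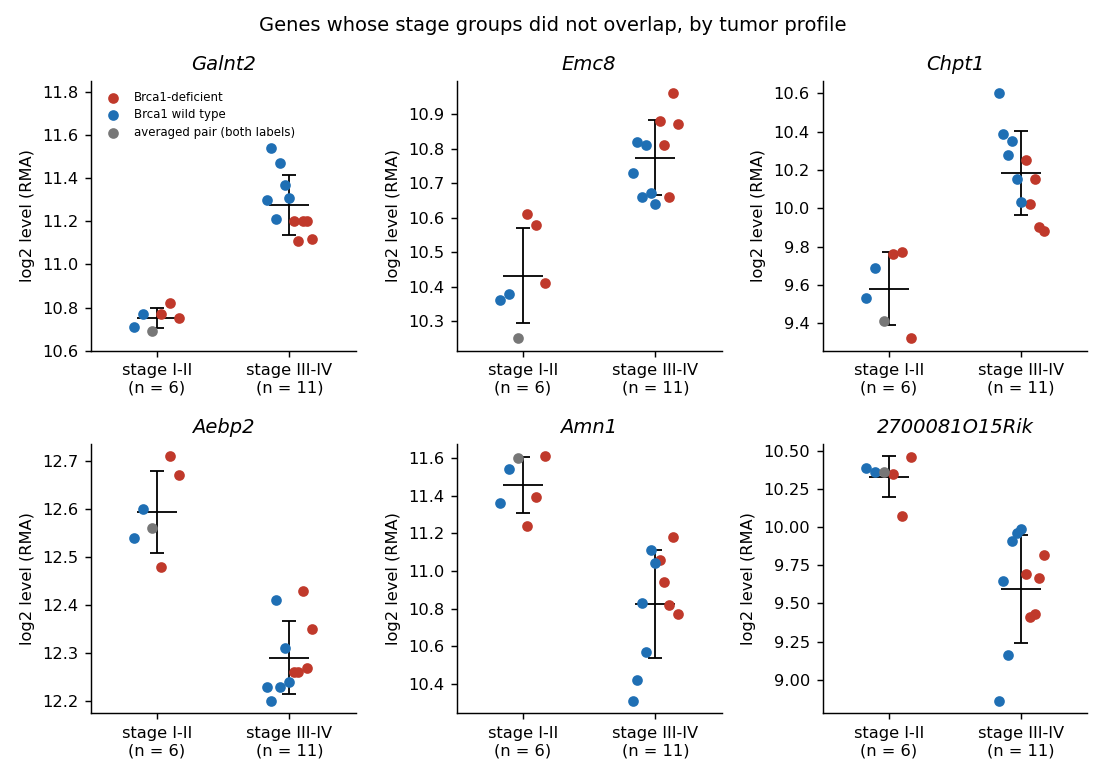
Log2 level of 6 genes in each tumor profile of stage I-II (n = 6) and stage III-IV (n = 11), colored by Brca1 label, with bars for the mean and SD. No stage III-IV profile lies within the stage I-II range for these genes, and of the 6 only Galnt2 passed the test.

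In other groups of the series, Galnt2 ran from 11.34 to 11.66 in 4 stage III-IV tumors of passages 4 and 5, and was 10.97 ± 0.04 (SD, n = 3) in normal ovarian epithelium. In published primary tumors Galnt2 was 10.85 ± 0.43 (SD, n = 13) in stage III-IV and 11.19 ± 0.11 (SD, n = 7) in stage I-II, a fitted difference of -0.18 (limma, unadjusted p = 0.281).

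The genes next in rank did not pass. Washc3, a subunit of the WASH complex that sorts endosomal cargo, had a median of 11.47 in stage III-IV and 11.05 in stage I-II, a difference of 0.37 with groups that overlapped (limma, adjusted p = 0.0541). Emc8, a subunit of the complex that inserts membrane proteins into the endoplasmic reticulum, had medians of 10.81 and 10.40 and groups that did not overlap (limma, adjusted p = 0.0789). Chpt1, a cholinephosphotransferase that makes phosphatidylcholine, had medians of 10.15 and 9.61, again without overlap (limma, adjusted p = 0.0789). Kars, the lysyl-tRNA synthetase, differed by 0.44, and the transcription factor Nfatc3 by 0.40. Entpd1, the ectonucleotidase CD39, and Rimklb, a ligase of glutamate to N-acetylaspartate, were picked out after their values were seen. Entpd1 had a median of 7.93 in stage III-IV against 7.03, and Rimklb 7.27 against 9.58, with differences of 0.86 and -2.82 (limma, adjusted p = 0.0541 for each).

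Among genes with lower values in stage III-IV, Vegfb, a ligand of VEGF receptor 1, had medians of 8.99 and 9.54 and a difference of -0.59 (limma, adjusted p = 0.0541). Pex5, the receptor that imports peroxisomal enzymes, had medians of 8.94 and 9.52. Aebp2, a cofactor of Polycomb complex PRC2, ran from 12.20 to 12.43 in stage III-IV and from 12.48 to 12.71 in stage I-II (limma, adjusted p = 0.107). Amn1 ran from 10.31 to 11.18 and from 11.24 to 11.61, also without overlap. Groups were apart in this sense for 21 genes (0.115%), 10 higher (0.055%) and 11 lower (0.0605%) in stage III-IV.

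No member of the 31 gene lists passed the test between stages. Of 509 measured list genes, 28 were higher at an unadjusted p under 0.05 and 27 lower, or 5.5% and 5.3%, against 4.01% and 5.7% of all genes. List medians of the stage difference ran from -0.24 to 0.47, with a median of 0.00 over all genes. No theme is named from these counts, and the values below carry unadjusted p-values from limma.

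In the list of epithelial junctions and keratins, 15 of 25 measured genes were above 0 and the median was 0.06. Cdh1, which encodes E-cadherin, had a median of 12.07 in stage III-IV and 10.73 in stage I-II, a difference of 1.01 with an SE of 0.41 (p = 0.0256). That difference was 2.01 among Brca1 wild type and 0.03 among Brca1-deficient tumors. The Cdh1 levels of 5 Brca1 wild type stage III-IV profiles, each at 12.53 or higher, were above those of every other profile. Esrp2, a splicing regulator of epithelial cells, differed by 0.36 with an SE of 0.083 (p = 0.000572), and Krt7 by -0.20. The list of epithelial to mesenchymal transition had a median of 0.00, with 11 of 22 genes above 0. Zeb1, a repressor of E-cadherin, differed by -0.12, and Vim by -0.19.

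No gene of peritoneal spread passed. Among adhesion genes, Cd24a, a glycoprotein of ovarian cancer cells, had medians of 10.56 and 9.65, a difference of 1.07 (p = 0.00684). Tenascin C (Tnc) had medians of 8.78 and 9.94, a difference of -1.08 (p = 0.00441). Cd44, the hyaluronan receptor, differed by 1.03 (p = 0.0658), with 2.64 in Brca1 wild type and -0.51 in Brca1-deficient tumors. Of 29 proteases and inhibitors, 23 were below 0, with a median of -0.21. Plau, the urokinase that activates plasminogen, had medians of 5.91 and 6.88 and differed by -0.89 with an SE of 0.23 (p = 0.00124), at a low level. Mmp7 and Mmp9 differed by 0.03 and -0.29. Among 27 chemokines and growth factors, 16 were below 0. Cxcl1, a neutrophil chemokine, had medians of 9.07 and 10.09, a difference of -1.49 (p = 0.0107), and Vegfa differed by -0.12.

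Clinical markers, hypoxia and growth genes overlapped between stages. Muc16, which encodes the CA-125 antigen, had medians of 9.22 and 10.47 (p = 0.289), and mesothelin (Msln) 8.01 and 8.33. In the hypoxia and glycolysis list 16 of 23 genes were below 0, with a median of -0.10. Its Car9, a carbonic anhydrase induced by low oxygen, differed by -0.62 (p = 0.0144). Mki67, a marker of cycling cells, had medians of 12.22 and 12.08 (p = 0.446). The mitosis and replication lists had medians of 0.08 and 0.06 over the 17 profiles, with opposite signs in the genotypes.

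The interaction of stage with Brca1 genotype passed for 426 of 18193 genes (2.34%; limma, adjusted p under 0.05) in the 16 profiles with 1 genotype label. The more positive difference was in Brca1-deficient tumors for 206 (1.13%) and in Brca1 wild type for 220 (1.21%). This test compares 5 with 3 Brca1-deficient profiles and 6 with 2 Brca1 wild type profiles, so the Brca1 wild type stage I-II arm rests on tumors 56234 and 56230. In sample order these follow another primary tumor than every Brca1 wild type stage III-IV tumor but 60514. Source line was not in the fit, so genotype dependence and differences between lines cannot be told apart. The result hinges on the averaged pair, which lies near 56234 and 56230. Counted as Brca1 wild type, it gave 1746 genes, counted as Brca1-deficient it gave 1 gene, and with all 20 arrays as labelled no gene passed, with 3653 at an unadjusted p under 0.05. Leaving out 1 profile at a time gave 1 to 3026 genes. Within genotypes, no gene passed among Brca1-deficient tumors (0%; 2287 at an unadjusted p under 0.05) and 40 passed among Brca1 wild type tumors (0.22%), 11 higher and 29 lower.

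Map3k7cl had the smallest interaction p. In Brca1-deficient tumors its levels were 6.08, 6.19, 6.63, 6.95 and 7.05 in stage III-IV and 4.87, 5.02 and 5.20 in stage I-II. In Brca1 wild type tumors the order was opposite, 5.22 ± 0.42 (SD, n = 6) in stage III-IV and 7.63 and 7.65 in stage I-II. Neither pair of groups overlapped, and the interaction was 3.97 with an SE of 0.39 (limma, adjusted p = 0.0015). Phlda1, a growth factor-induced regulator of cell survival, followed the same order, with stage differences of 1.26 and -1.59 and an interaction of 2.85 (limma, adjusted p = 0.00413). Gfi1, a transcriptional repressor of blood cell development, stood at 6.99 and 6.87 in tumors 56234 and 56230 and at 4.72 to 5.36 in all others, the averaged pair included (limma, adjusted p = 0.00313). Haspin, the histone H3 kinase of mitosis, had an interaction of -2.07 (limma, adjusted p = 0.0094). Slc36a2, an amino acid transporter, had stage differences of -0.95 in Brca1-deficient and 2.08 in Brca1 wild type tumors (limma, adjusted p = 0.0152).

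**Figure D2:**
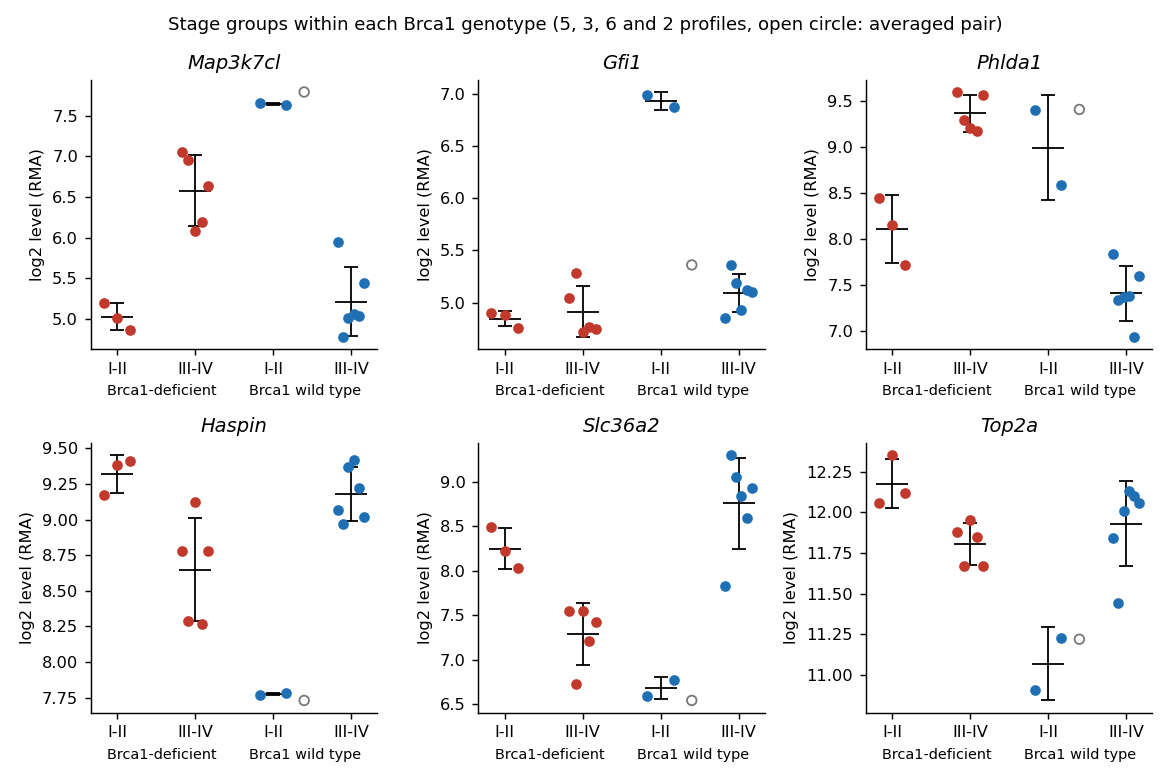
Log2 level of the 5 genes with the smallest interaction p, and of Top2a, by stage group within Brca1-deficient (n = 3 and 5) and Brca1 wild type (n = 2 and 6) profiles, with bars for the mean and SD and an open circle for the averaged pair, which carries both labels. Stage I-II and stage III-IV means change order between the genotypes for Map3k7cl, Phlda1, Haspin, Slc36a2 and Top2a.

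Cell division genes made up the largest group of list members with an interaction. In the mitosis list 7 of 28 measured genes passed, and in the replication list 4 of 30, against 2.34% of all genes. All 11 had the more positive stage difference in Brca1 wild type tumors. These calls are part of the 426, which fell to 1 gene with the averaged pair counted as Brca1-deficient, or without 56234. Its mitosis list mean was 10.31, against 11.18 to 11.35 in Brca1-deficient and 10.03 and 10.48 in Brca1 wild type stage I-II profiles. The mitosis and replication list medians of the stage difference were -0.47 and -0.30 in Brca1-deficient tumors and 0.54 and 0.42 in Brca1 wild type tumors. Top2a, the topoisomerase that untangles sister chromatids, was 11.80 ± 0.13 (SD, n = 5) in stage III-IV and 12.17 ± 0.15 (SD, n = 3) in stage I-II of Brca1-deficient tumors. In Brca1 wild type tumors it was 11.93 ± 0.26 (SD, n = 6) and 11.07 ± 0.23 (SD, n = 2), an interaction of -1.23 (limma, adjusted p = 0.0316). Cdc20, which activates the ubiquitin ligase of anaphase, and Bub1, a spindle checkpoint kinase, had interactions of -1.57 and -1.87. Mki67 had stage differences of -0.46 and 0.76 and did not pass (limma, adjusted p = 0.0706).

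The other 8 list genes that passed had the opposite sign. They came from 6 lists, and none was among the 23 measured genes of the matrix and collagen list. Among 29 proteases and inhibitors, 3 passed: Mmp3 and Mmp10, both stromelysins, and Timp2, an inhibitor of metalloproteinases. Timp2 was 12.49 ± 0.16 (SD, n = 5) in stage III-IV and 11.81 ± 0.18 (SD, n = 3) in stage I-II of Brca1-deficient tumors. In Brca1 wild type tumors Timp2 was 11.97 ± 0.31 (SD, n = 6) and 12.62 ± 0.08 (SD, n = 2), an interaction of 1.33 (limma, adjusted p = 0.0319). Fibronectin (Fn1) and the monocyte chemokine Ccl2 had interactions of 1.92 and 2.02, and Slc34a2, a phosphate transporter and serous tumor antigen, 5.46 (limma, adjusted p = 0.041). In all, 19 of 509 list genes passed, or 3.73%, against 2.34% of all genes. Where list genes are also made by stroma, fewer cells of a type and less RNA per cell cannot be told apart in bulk tumor.

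**Figure D3:**
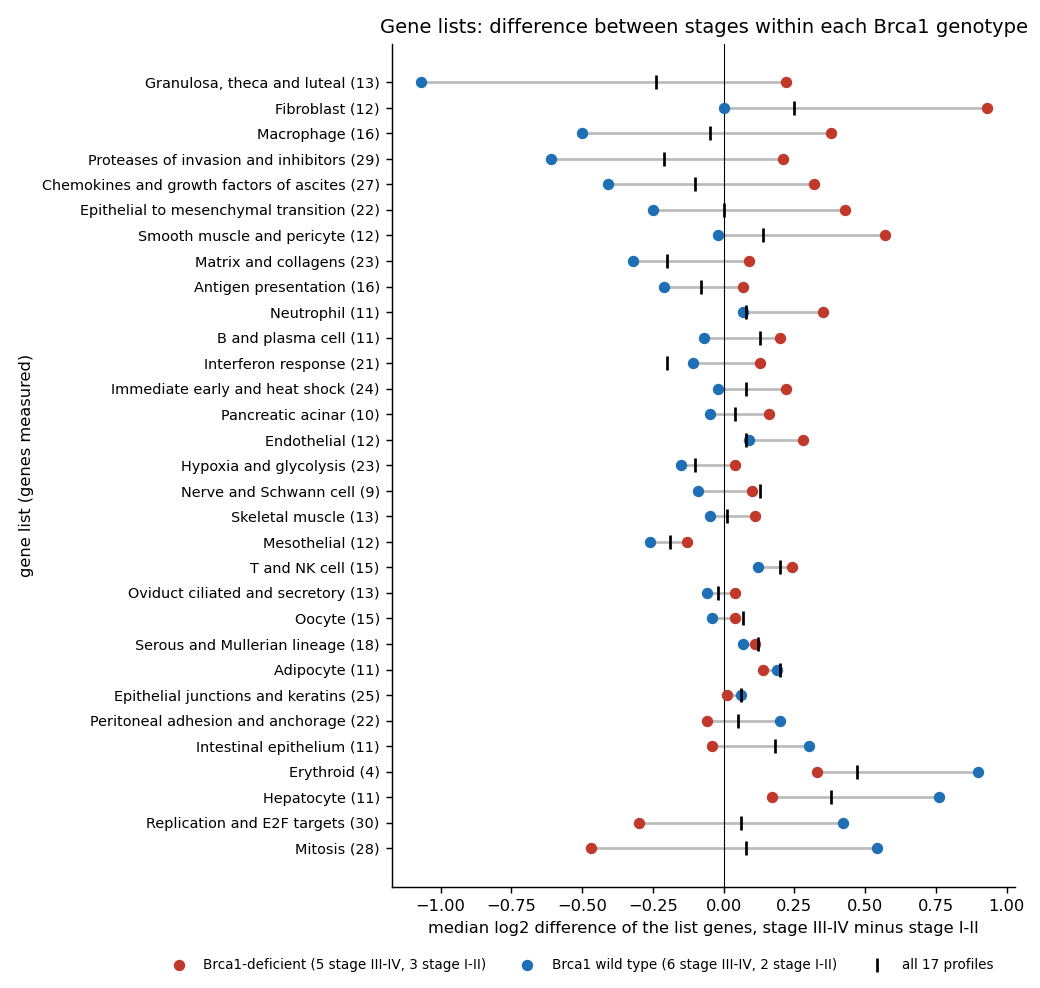
Median log2 difference of the measured genes of 31 lists, stage III-IV minus stage I-II, among Brca1-deficient profiles (red), Brca1 wild type profiles (blue) and all 17 profiles (black bars). The medians have opposite signs in the genotypes for 21 lists, with mitosis at -0.47 and 0.54.

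Genes with small p-values were unevenly spread over the chromosomes, a pattern looked for after the gene values had been seen. Of 86 genes with an unadjusted p under 0.001 and a known chromosome, 18 lay on chromosome 8 and 15 on chromosome 10, all higher in stage III-IV, and 14 on chromosome 6, 13 of them lower. Galnt2, Emc8, Kars, Nfatc3, Esrp2 and Cdh1 lie on chromosome 8, Washc3, Chpt1 and Cd24a on chromosome 10, and Rimklb, Pex5, Aebp2 and Amn1 on chromosome 6. The mean level of each chromosome's genes was therefore compared, relative to all genes of the same profile and without Brca1 genotype as covariate.

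Chromosomes 8, 10 and 18 had higher means in stage III-IV. Chromosome 10 differed by 0.173 (860 genes; exact permutation test, two-sided, p = 0.00097, adjusted over 20 chromosomes 0.0194). Chromosome 8 differed by 0.184 (932 genes; exact permutation test, p = 0.00234, adjusted 0.0234), and chromosome 18 by 0.145 (458 genes; exact permutation test, p = 0.00444, adjusted 0.0296). The largest difference was that of chromosome 16, -0.240 (593 genes), which did not pass (exact permutation test, p = 0.027, adjusted 0.135). On chromosome 8, 20.3% of genes were higher at an unadjusted p under 0.05, and on chromosome 16 26.5% were lower. The shifts ran along the chromosomes: of consecutive bins of 60 genes, 14 of 14 on chromosome 10, 14 of 15 on chromosome 8 and 7 of 7 on chromosome 18 had a median above 0, and 9 of 9 on chromosome 16 and 16 of 16 on chromosome 6 below 0. All bins of chromosomes 13, 17 and 19 were below 0 as well, though none of these chromosomes passed.

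The lowest values on chromosomes 8, 10 and 18 were in the same stage I-II tumors. Tumors 57454 and 61345, both Brca1-deficient stage II, had deviations of -0.32 and -0.32 on chromosome 8, -0.25 and -0.27 on chromosome 10, and -0.21 and -0.23 on chromosome 18. No other stage I-II profile was below -0.08 on any of these chromosomes, and stage III-IV ran from -0.08 to 0.15. Tumor 60530, the remaining Brca1-deficient stage I-II profile, was at 0.09 on chromosome 8, -0.08 on chromosome 10 and -0.05 on chromosome 18. Without 57454 or without 61345 no chromosome passed, with smallest adjusted p-values of 0.0595 in both cases (exact permutation test). Each of these fits keeps the other low tumor, and leaving out both was not run. The differences of chromosomes 8, 10 and 18 kept their sign, at 0.144, 0.145 and 0.121 without 57454 and 0.143, 0.142 and 0.117 without 61345. Among Brca1 wild type tumors, which include neither, they were 0.103, 0.117 and 0.100 (exact permutation test, p = 0.0714, 0.0714 and 0.143), and among Brca1-deficient tumors 0.259, 0.220 and 0.191 (exact permutation test, p = 0.0714, 0.0179 and 0.0357). With all 20 arrays the smallest adjusted p was 0.0873 (exact permutation test). On chromosome 16 the 5 Brca1 wild type stage III-IV tumors other than 60514 lay between -0.33 and -0.26, and all other profiles between -0.01 and 0.22. In Brca1 wild type tumors alone chromosome 16 differed by -0.427 (exact permutation test, p = 0.0357, the smallest that 6 against 2 allows), and in Brca1-deficient tumors by -0.012 (exact permutation test, p = 0.786). With each chromosome's mean removed from every profile, the Galnt2 difference was 0.33 (limma, adjusted p = 0.338) and no gene passed, whereas 247 of the 426 interaction genes still passed. In sample order 57454 and 61345 follow the same primary tumor, and 60530 follows another. Stage III tumor 57452 follows the primary tumor of 57454 and 61345 and was at 0.00, 0.03 and 0.01 on chromosomes 8, 10 and 18. The 5 tumors low on chromosome 16 follow other primary tumors than 60514 and the Brca1 wild type stage I-II tumors. Whether the profiles that share these patterns come from shared lines was not tested.

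**Figure D4:**
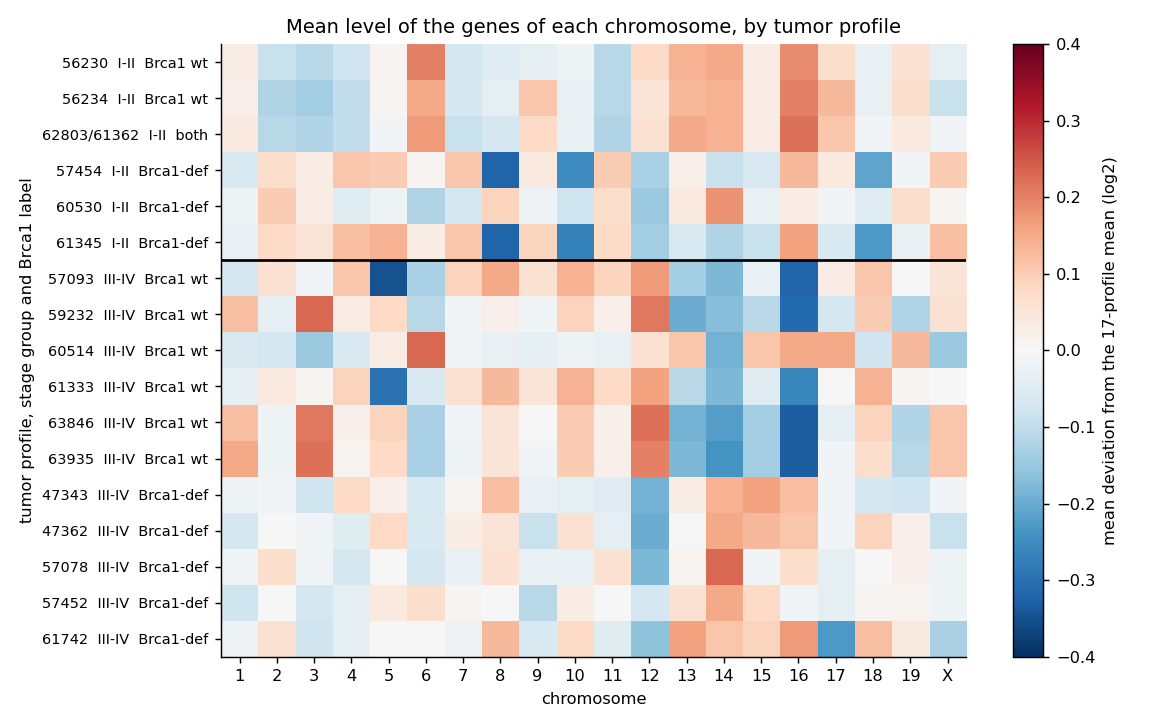
Mean log2 deviation of the genes of each chromosome from the 17-profile mean, relative to all genes, for 6 stage I-II profiles (above the line) and 11 stage III-IV profiles (below it). Tumors 57454 and 61345 are low on chromosomes 8, 10 and 18, and 5 Brca1 wild type stage III-IV tumors are low on chromosome 16.

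In 20 published primary tumors with a stage label, 13 of stage III-IV and 7 of stage I-II, no chromosome passed the test between stages. These tumors differ in genotype from the passaged ones: 5 of the 7 stage I-II and 3 of the 13 stage III-IV tumors carried a p53 missense allele, and 5 of the 20 were Brca2-deficient. The paper writes that p53 genotype as a missense allele together with a deleted one. Stage is thus unevenly spread over p53 genotype there; the gene test had genotype as a factor and the chromosome test did not. Chromosomes 8, 10 and 18 had differences of 0.018, -0.001 and -0.045, and the smallest adjusted p over 20 chromosomes was 0.837 (exact permutation test). No gene passed between stages in those tumors either (limma, smallest adjusted p = 0.863, 1043 at an unadjusted p under 0.05). The stage difference of passaged tumors minus that of published primary tumors passed for no gene (0%; limma, smallest adjusted p = 0.228, 1158 at an unadjusted p under 0.05). With p53-deleted published tumors alone, 10 of stage III-IV and 2 of stage I-II, 13 genes passed (limma, smallest adjusted p = 3.48e-15). The 2 stage I-II tumors there have different Brca1 genotypes and genotype is in the fit, so that stage difference rests on 1 Brca1-deficient stage I tumor. With all 20 published tumors the smallest p-values were for Cfap410, Washc3, Amn1, Mrpl54 and Sec24b. Mrpl54, a mitochondrial ribosomal protein, differed by 0.37 in passaged and -0.45 in published tumors, and Amn1 by -0.61 and 0.37.

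Hepatocyte and erythroid markers were highest in single stage III-IV profiles. Tumor 61333, stage IV, had a hepatocyte list mean of 10.01, while the other 16 profiles ran from 5.73 to 6.69. Albumin (Alb) was 12.71 in that tumor and 5.85 to 6.89 in the others, and transthyretin (Ttr) 10.14 against 6.19 to 7.17. With that tumor left out, the hepatocyte list median of the stage difference was 0.07 in place of 0.38. Tumor 59232, stage IIIB, had the highest mean of 4 erythroid genes, 8.40, and Slc4a1, the red cell anion exchanger, at 10.99 against 5.24 to 8.45. No gene of either list passed the stage test.

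Granulosa, theca and luteal markers had 11 of 13 genes below 0 and the lowest list median, -0.24. Foxl2, a transcription factor of granulosa cells, had medians of 6.81 in stage III-IV and 9.51 in stage I-II, a difference of -1.37 (limma, unadjusted p = 0.0273). Follistatin (Fst) and inhibin alpha (Inha) differed by -2.35 and -1.04 (limma, unadjusted p = 0.0286 and 0.0405). The list mean of 5 Brca1 wild type stage III-IV profiles was 6.64 to 6.93, below every other profile, whereas 60514 of the same group had the highest, 9.30. The list median of the stage difference was -1.07 in Brca1 wild type and 0.22 in Brca1-deficient tumors, so the low values lay in the same 5 tumors as the low chromosome 16 and the high Cdh1. In sample order these 5 tumors follow other primary tumors than 60514 and the Brca1 wild type stage I-II tumors. Stage and source line therefore cannot be told apart for them. The part of these 5 tumors in the other stage differences was not tested.

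No stromal or immune marker passed between stages, and list medians differed between genotypes. Fibroblast markers had a median stage difference of 0.25, with 0.93 in Brca1-deficient and -0.00 in Brca1 wild type tumors. Smooth muscle and pericyte markers had 0.57 and -0.02 in these genotypes, and macrophage markers 0.38 and -0.50. Protease, Fn1 and Ccl2 differences had the same order between genotypes, and the part of these cell types in them was not tested. T and NK cell markers had 14 of 15 genes above 0 and a median of 0.20, with list means from 5.82 to 6.40 in stage III-IV and 5.62 to 5.93 in stage I-II. Cd3g and Cd3d, chains of the T cell receptor complex, differed by 0.41 and 0.40 at low levels (limma, unadjusted p = 0.0322 and 0.048). Pecam1, an endothelial adhesion protein, and Rgs5, a pericyte marker, differed by 0.38 and 0.44 (limma, unadjusted p = 0.0107 and 0.00198). Adgre1, which marks macrophages, differed by -0.15 and Col1a1, a fibrillar collagen chain, by 0.10. Adipocyte list means ran from 7.09 to 9.48 in stage III-IV and from 7.48 to 8.67 in stage I-II.

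**Figure D5:**
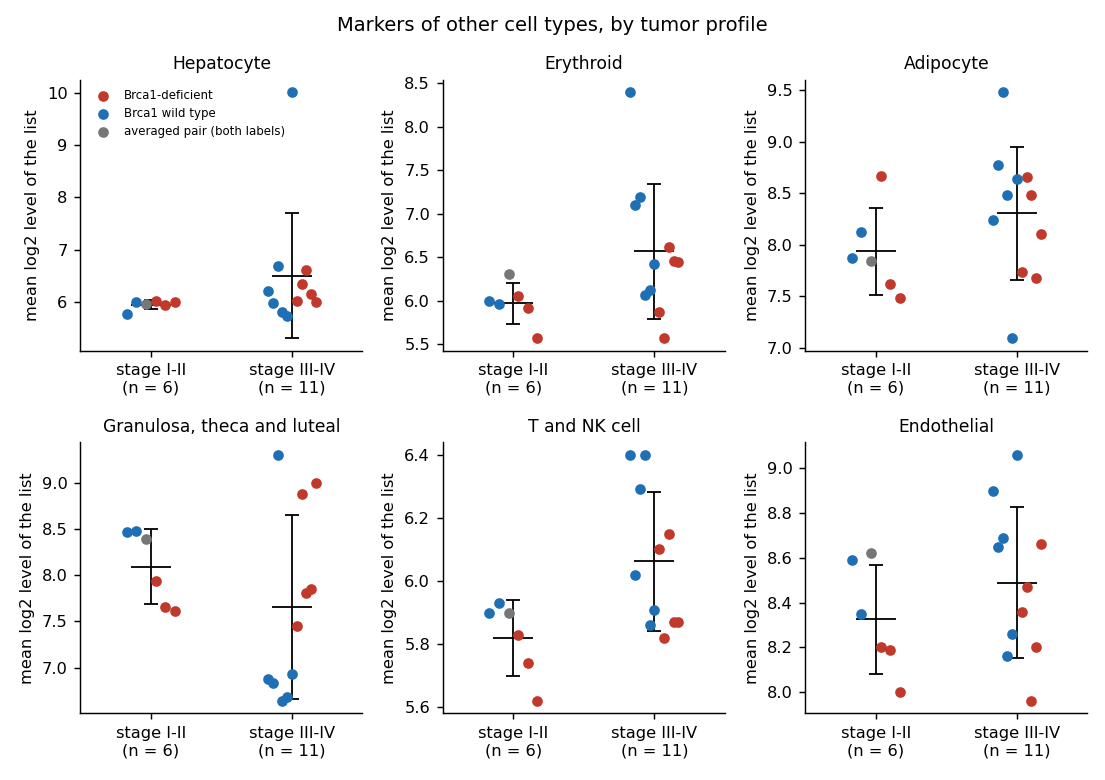
Mean log2 level of 6 cell type marker lists in each profile of stage I-II (n = 6) and stage III-IV (n = 11), with bars for the mean and SD. Tumor 61333 stands alone in the hepatocyte list at 10.01, and 5 Brca1 wild type stage III-IV profiles have the lowest granulosa, theca and luteal means.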

How the data were processed

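Log2 RMA values of 45037 probe sets on 59 arrays, from 3.25 to 14.31, were taken as deposited. In making them the authors used RMA (version not stated in the labels), which subtracts background, gives arrays 1 distribution and combines probes. A second table, merging mouse with human samples, was left out. Of the probe sets, 34945 had 1 gene symbol, 932 several and 9160 none; 18193 genes were each read from their brightest probe set, averaged across the series, and other probe sets of a gene can disagree.

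Groups came from the sample labels. The stage test was limma 3.58.1 in R 4.3.3 (two-sided, Brca1 genotype as covariate), with Benjamini-Hochberg adjustment over all genes and a threshold of 0.05. Members and lists were chosen with earlier results of these data known. Named genes were, by rule, up to 10 higher and 10 lower (filled by smallest p among the brighter genes), 2 per list, a fixed list and 5 per interaction, and the text gives a selection. Rimklb, Entpd1, Alb, Ttr, Inha, the list genes with an interaction call and the chromosome comparison were picked after values were seen. RefSeq (GRCm38.p6) placed 18018 genes on chromosomes. With 100 genes changed at each size among 18193 in simulated data, the stage test found 75 of those changed by 1 on the log2 scale and 95 of those changed by 2, the genotype interaction 68 at 2 and 95 at 4, and the interaction with published tumors 52 at 1 and 88 at 2. The simulated noise was independent for each gene and profile, without shared lines or chromosome-wide shifts, so recovery in the real profiles can differ. P-values measure the spread between these arrays, whose number limits the precision. Alternatives covered near-identical arrays, covariates, tumors entered, probe sets, array weights and each profile left out.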

Additional observations from a re-analysis of the deposited data

Results flagged for a closer look

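The stage difference itself differed between Brca1 genotypes, by an interaction term in limma, for 426 genes. The 5 genes with the smallest p were Map3k7cl with an interaction of 3.97 (adjusted p = 0.0015), Gfi1 with 1.91 (adjusted p = 0.00313), Phlda1 with 2.85 (adjusted p = 0.00413), Haspin with -2.07 (adjusted p = 0.0094) and Slc36a2 with -3.03 (adjusted p = 0.0152), each from limma. All 5 rest on 2 Brca1 wild type stage I-II profiles, which follow the same primary tumor in sample order. Source line was not in the fit and cannot be told apart from genotype dependence.

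Of 51 list and chromosome means looked at in the 6 stage I-II profiles, 1 had a profile apart from the rest. Tumor 56234 had a hepatocyte list mean of 5.78, against 5.94 to 6.02 in the other 5 profiles. Chance flags about 1 in 20 such groups.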

How the results depend on the processing

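The count of genes between stages, 1 in the reported test, was 0 with both near-identical pairs left out, with the mean of a gene's probe sets, with a slope per stage, among Brca1-deficient tumors alone and, an alternative chosen after seeing the data, with chromosome means removed. It was 2 with 62803 alone for its pair, 3 with 64644 alone, 6 with 65021 alone, 32 in passages 1 and 2, 40 among Brca1 wild type tumors, 90 with passages 4 and 5 added and 1682 with array weights. Leaving out 1 profile gave 0 to 53, with 53 without 60530 and 0 without 56234, 56230 or the averaged pair. Galnt2 passed in 27 of 35 settings, with differences of 0.33 to 0.63 and adjusted p from 0.00066 to 0.338 (limma). The 426 interaction genes became 210 with passage added, of which 163 were among the 426. In alternatives chosen after seeing the data they became 0 with all 20 arrays (smallest adjusted p 0.0762, limma), 1746 with 62803 alone, 1 with 61362 alone and 1 to 3026 with 1 profile left out, 1 without 56234 and 3026 without 60514. It was 3 without 57454, 5 without 61345, 10 without 56230 or 63935, 11 without 57093 or 61333, 12 without 63846, 35 without 47362, 65 without 47343, 186 without 59232, 666 without 57078, 725 without 61742 and 1066 without 60530. The interaction with published tumors, 0 genes, gave 13 with p53-deleted published tumors alone. The nearest profile shared the stage group for 13 of 17 profiles with brighter probe sets alone (exact permutation test, p = 0.0692). The 3 chromosomes that passed became 0 with all 20 arrays and 0 to 4 with 1 profile left out, 0 without 57454 or 61345. Of 5004 values of single genes under alternatives, 4689 kept their direction and side of the threshold or stayed within the replicate spread. Another 163 moved by more, 127 newly passed and 25 no longer passed. Direction was not the same in every alternative, as with Cd44 among Brca1-deficient tumors above. No paired analysis was possible because the labels carry no replicate numbers and the numbers here only follow accession order.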

Other observations

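Genes of other lineages varied widely within the stage groups, and were picked after their values were seen. Ooep, a component of the subcortical maternal complex of the egg, ran from 5.93 to 13.27 in stage III-IV and from 6.12 to 11.61 in stage I-II, a difference of 2.39 (limma, adjusted p = 0.565). Rsph4a, a radial spoke protein of motile cilia, was at 9.08, 8.83 and 8.98 in tumors 59232, 63846 and 63935, all Brca1 wild type stage III-IV, and at 5.71 or lower in the other 14 profiles. In published primary tumors Rsph4a had medians of 7.87 in stage III-IV (n = 13) and 8.44 in stage I-II (n = 7).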
